A study of Caenorhabditis elegans with 27 samples.

Results

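Very short genes on the 5 autosomes of Caenorhabditis elegans were followed while topoisomerases were depleted in whole worms. A gene belonged to the group if its span in the deposited tables, taken as stop minus start plus 1, was under 600 bp. Its transcript level also had to reach 1 TPM (transcript abundance corrected for length and depth) in at least 2 of the 27 libraries. The rule kept 605 of the 20390 genes in each table. Of these, 22 had a mean above 1000 TPM and are described apart, so that counts below refer to the other 583 unless stated.

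Poly(A) RNA was sequenced as stranded libraries from 4 strains that carry the auxin receptor TIR1, through which auxin (1 mM indole-3-acetic acid) sends degron-tagged proteins to the proteasome. The tagged protein was topoisomerase I in AM05 (top-1::degron::GFP, called TOP-1-degron worms), topoisomerase II in SS01A (TOP-2-degron worms) and DPY-27, a subunit of the condensin that binds the X chromosomes, in AM01 (dpy-27::degron::GFP, DPY-27-degron worms). In CA1200, the control, no protein carries the degron. The first and second of these strains and CA1200 were sampled after 0, 30, 60 and 120 min of auxin, and DPY-27-degron worms after 0 and 120 min. Of these 14 groups, CA1200 at 60 min had 1 library and the others had 2. Worms were L2/L3 larvae, apart from the replicate 2 libraries of DPY-27-degron worms, which were of mixed stage. The series' text calls the replicates biological, and p-values measure the spread between these samples.

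Topoisomerases I and II cut and rejoin DNA to release the turns and knots that build up when polymerases move along it. Topoisomerase I cuts 1 strand and is known for its role in the elongation of long genes, so very short genes form the opposite end of the length range. The shortest protein-coding genes of the worm include histones, small heat shock proteins, metallothioneins, antimicrobial and signalling peptides, and several ribosomal proteins, along with many genes that have a sequence name and no other name.

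Depth, estimated from the steps in the FPKM values of genes with few fragments, ranged between 7.06 and 26.1 M fragments. Libraries of replicate 1 of TOP-2-degron worms (4 libraries) and of DPY-27-degron worms (2 libraries) stood apart. In those 6 libraries the 605 short genes took 5.42% to 9.01% of all TPM, against 12.8% to 18.1% in the other 21, and depth was 7.06 to 11.6 M fragments, against 14.2 to 26.1 M. Markers of muscle, intestine, neurons, hypodermis and pharynx were present in every library. Other markers were low but not absent. The sum of 3 sperm markers had a median of 0.138 and a maximum of 0.355, and that of 4 adult markers 0.644 and 3.41. The sum of 3 oocyte and embryo markers had 2.41 and 6.59, and that of 3 germline markers 6.98 and 61. The degron acts on the protein, so top-1 transcript levels (22.3 to 72 scaled TPM over all libraries) do not measure the depletion. In whole worms, fewer cells of a type and less RNA per cell cannot be told apart.

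Over all 605 short genes the median span was 442 bp, the shortest spanned 106 bp, and the coding sequences of 561 of them had a median of 279 bp in the reference annotation. They had few introns. Of the 573 with a match in the annotation, 22.5% had 1 exon and 50.8% had 2, while 0.524% of the other autosomal genes tested had 1 exon. Chromosome V held 210 of the short genes, or 34.7%, against 25.2% of all autosomal genes tested. A sequence name and no other name stood on 59.8% of them, against 37.8% of other autosomal genes, and 104 overlapped another gene. These are descriptions, with no test of the difference.

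The group holds the part of the short genes that were expressed. Only 49.9% of the 1212 autosomal genes under 600 bp passed the filter, against 70% of longer autosomal genes, and 269 of those that did not pass were listed at 0 in every library. Most of the major sperm proteins and sperm peptides dropped out here, with 4 of 54 passing. Of the 605 short genes that passed, 43.6% were listed at 0 in at least 1 library, against 9.52% of other autosomal genes. Their median level, without the 22 most abundant, was 6.39 TPM. Just inside the span limit stood R12E2.15 and Y111B2A.2, each 1 bp shorter than it, with mean changes of 0.27 and -0.29 (log2, TOP-1-degron worms, 120 min against no auxin). Just outside, at 600 bp, C33D9.10 had 0.92 and lsm-1 had -0.15.

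Few fragments stood behind many of these values. In the authors' deposited table for TOP-1-degron worms at 120 min, 301 of the 583 short genes had a mean count of 10 or more, 191 had less and 91 were not listed. One mean count corresponded to a median of 0.152 scaled TPM in genes from 500 to under 600 bp, to 0.729 from 200 to under 300 bp and to 1.57 from 100 to under 200 bp, against 0.0167 in autosomal genes of 8000 bp and over. A level of a few TPM in the shortest genes is therefore 1 or a few fragments. The median distance between replicates was also wider in short genes. It was 0.412 to 0.668 (log2) in the groups of TOP-1-degron worms and CA1200 and 0.902 to 1.15 in those of TOP-2-degron and DPY-27-degron worms, against 0.271 to 0.406 and 0.484 to 0.653 in other autosomal genes.

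**Figure D1:**
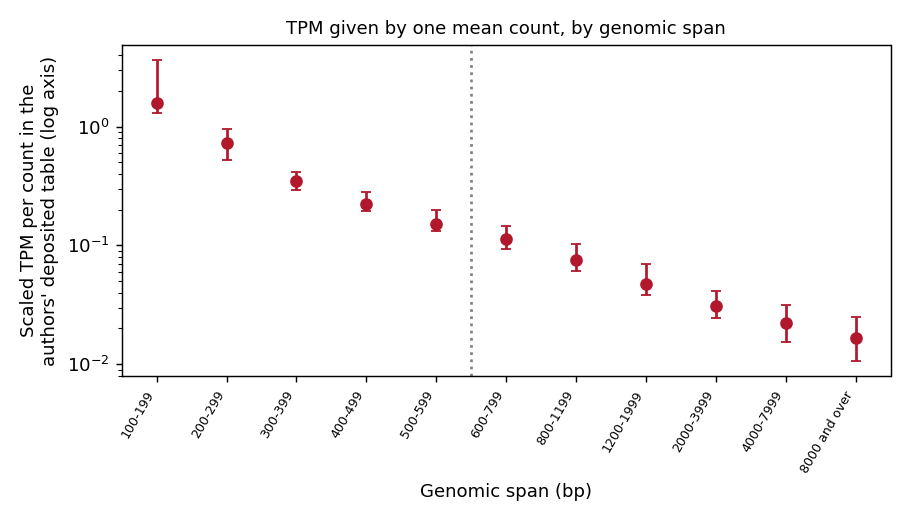
Scaled TPM per mean count in the authors' deposited table of TOP-1-degron worms at 120 min (log axis) by genomic span in bp, for autosomal genes with a mean count of at least 10 and a mean level up to 1000 TPM. Points are medians over genes, bars the quartiles, and the dotted line the 600 bp limit. The value falls with every class, with 1.57 in the shortest, which holds only 3 genes, and 0.0167 in the longest.

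After 120 min of auxin in TOP-1-degron worms, 9 short genes passed the test, 7 higher and 2 lower (limma, Benjamini-Hochberg adjusted p under 0.05). That is 1.54% of them, while 1.94% of all 14271 genes tested were called, 0.827% higher and 1.11% lower. At an unadjusted p under 0.05 there were 56 (9.61%, against 13.8% of all genes). Replicate numbers paired the libraries of a strain, and with the replicate as a block 97 short genes were called, 82 higher and 15 lower (16.6%, against 23% of all genes, 11.5% in each direction). The split by direction moved with the scaling: it was 0 higher and 1 lower with TPM as deposited, and 1 of each once the trend of change with span was removed. No call was left when any of 3 libraries was dropped (either no-auxin library, or replicate 1 at 120 min), and 4 were left without replicate 2 at 120 min.

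R09E10.13, on chromosome IV (10294815 to 10295245 in the coordinates of the files), was 1 of the 2 genes that fell. Its level in TOP-1-degron worms was 79.9 and 124 scaled TPM without auxin, 15.7 and 40.7 at 30 min, 3.45 and 5.5 at 60 min, and 0.655 and 1.14 at 120 min. In CA1200 it was 67.2 and 29.7, then 56.0 and 18.3, then 5.59, and at 120 min 1.8 and 0.376. Both strains had low values at 120 min, and the groups at 120 min did not overlap the groups without auxin in either. The change at 120 min was -5.74 ± 0.96 in TOP-1-degron worms (log2 of scaled TPM + 1, standard error; limma adjusted p = 0.00999) and -4.54 ± 0.96 in CA1200 (adjusted p = 0.261; with the replicate block adjusted p = 0.0081). The difference between the strains in this change was -1.20 ± 1.35 (adjusted p = 1). In TOP-2-degron worms R09E10.13 had 2.72 and 23.0 scaled TPM without auxin, 9.44 and 55.9 at 30 min, 0 and 2.46 at 60 min, and 1.95 and 1 at 120 min. In DPY-27-degron worms it had 2.11 and 0.246 at 120 min, against 0.958 and 2.29 without auxin.

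The other gene that fell, M02G9.4, had no value above 0 at 120 min, against 0.86 and 2.04 scaled TPM without auxin in TOP-1-degron worms (limma adjusted p = 0.0277). Its mean count in the authors' deposited table was 0.821. M02G9.4 reached 1 TPM in 1 of those libraries and in 1 library elsewhere, so it passed the filter partly through the group from which it fell. Of the 7 genes that rose, the highest level was that of F35F10.14, a gene of 202 bp on chromosome V. It had 23.2 and 12.1 scaled TPM at 120 min, against values listed at 0 in both libraries without auxin (limma adjusted p = 0.00999). CA1200 had 4.79 and 20.0 scaled TPM of F35F10.14 at 120 min, against values of 0 in both without auxin. The authors' mean count behind this gene was 2.58, and it was listed at 0 in all 8 libraries of TOP-2-degron worms.

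B0228.6 and F48G7.9 rose on more reads. B0228.6 had 11.4 and 11.2 scaled TPM at 120 min, against 4.66 and 2.94 without auxin in TOP-1-degron worms, with both values at 60 min between those. The groups did not overlap, and the change was 1.38 ± 0.33 (log2; limma adjusted p = 0.0471). In CA1200 it was 7.49 and 6.76 at 120 min, against 8.21 and 4.53 without auxin, and there the groups overlapped. F48G7.9 had 7.85 and 3.5 scaled TPM at 120 min, against 0.318 and 0.421 without auxin, a change of 2.2 ± 0.52 (adjusted p = 0.046, limma). The authors' mean counts of B0228.6 and F48G7.9 were 52.8 and 14.5.

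The remaining 4 genes that rose were at or near 0 without auxin. Y46C8AL.11 had 7.41 and 18.1 scaled TPM at 120 min, against 0 and 0.669 without auxin (3.30 ± 0.70, log2; limma adjusted p = 0.0277). Y38H6C.24 had 6.29 and 2.52, against 0 and 0.48 (adjusted p = 0.0365). T24E12.12 had 1.73 and 3.74, and C08E8.5 had 2.85 and 2.47, each listed at 0 in both libraries without auxin (adjusted p = 0.0496 for T24E12.12 and 0.0222 for C08E8.5). C08E8.5 reached 1 TPM in only 1 library outside the 120 min group, so it passed the filter through the group where it is high, which favours a call. In all 4 the groups did not overlap. In CA1200 the mean of Y46C8AL.11 was 0.34 scaled TPM without auxin, 3.36 at 30 min and 1.62 at 120 min, and its lone 60 min library had 5.03. Y38H6C.24 had CA1200 means of 0.26 without auxin and 0.87 at 120 min. T24E12.12 had 0.45 and 0.41, and C08E8.5 was at 0 in both. The authors' mean count was 10.0 for Y46C8AL.11 and below 10 for the other 3, so that 5 of the 9 genes called, and 4 of the 7 that rose, had fewer than 10. None of the 9 passed the test of a difference from CA1200 in its change. That test called 0 of the short genes and 0% of all genes, so it does not set these genes apart from others.

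The small heat shock proteins, chaperones that bind unfolded proteins and are induced by heat, had the largest median change of the groups of short genes at 120 min in TOP-1-degron worms and in CA1200. Their 6 short genes, hsp-16.1 and hsp-16.11 of the 22 most abundant included, had a median of -6.65 (log2) at 120 min in TOP-1-degron worms and -5.14 in CA1200, with 1 positive and 5 negative in each. hsp-16.48, on chromosome V (9088109 to 9088595), had 3095 and 2300.3 scaled TPM without auxin in TOP-1-degron worms, 2959 and 1231 at 30 min, 1219.8 and 296 at 60 min, and 57.2 and 11.1 at 120 min. In CA1200 it had 1323 and 1816 without auxin, 3145 and 921 at 30 min, 973 at 60 min, and 103 and 17.1 at 120 min. Both strains thus held high levels without auxin and low levels at 120 min, with no overlap.

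The change of hsp-16.48 was -6.65 ± 2.11 in TOP-1-degron worms (limma adjusted p = 0.133; with the replicate block -6.65 ± 0.76, adjusted p = 0.000153). In CA1200 it was -5.16 ± 2.11 (adjusted p = 0.884, and 0.0123 with the block), and the difference between the strains was -1.49 ± 2.98 (adjusted p = 1). hsp-16.49 had the same change, and hsp-16.1 and hsp-16.11, which are among the 22 genes above 1000 TPM, changed by -7.06 ± 2.54 each (limma adjusted p = 0.195 and 0.194, with the block 0.00068 and 0.000655). These 4 genes lie side by side on chromosome V (9087271 to 9090582) as near-identical pairs, and reads shared inside a pair cannot be assigned. In the authors' deposited table hsp-16.1 had a mean count of 14.4, although its level was 6656 and 5251 scaled TPM without auxin in TOP-1-degron worms, with a log2 fold change of -7.51.

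The level of these chaperones without auxin differed between cultures. hsp-16.48 had 15.7 scaled TPM in replicate 1 of TOP-2-degron worms without auxin and 2239.6 in replicate 2. At 30 min TOP-2-degron worms had 463 and 9028, at 60 min 158 and 3034, and at 120 min 8.62 and 215. DPY-27-degron worms had 18.7 and 12.3 at 120 min, against 18.3 and 48.4 without auxin, all below the levels of TOP-1-degron worms and CA1200 at 0, 30 and 60 min. In both replicates of TOP-2-degron worms the highest value was that at 30 min.

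mtl-1, a metallothionein that binds metal ions, moved the other way. In TOP-1-degron worms it had 14.2 and 10.7 scaled TPM without auxin, 102 and 123 at 30 min, just under 200 in both at 60 min, and 326 and 314 at 120 min. CA1200 had 118 and 15.4 without auxin, 839 and 114 at 30 min, 1629 at 60 min, and 1598 and 548 at 120 min. In both strains every library at 120 min was above every library without auxin, and each replicate was higher at 120 min than without auxin.

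The change of mtl-1 at 120 min was 4.59 ± 1.59 in TOP-1-degron worms (limma adjusted p = 0.175; 0.000436 with the replicate block) and 4.40 ± 1.59 in CA1200 (adjusted p = 0.831; 0.00937 with the block). The difference between these changes was 0.18 ± 2.25 (adjusted p = 1). In TOP-2-degron worms mtl-1 had 86.4 and 1432 scaled TPM at 120 min, against 76.5 and 160.2 without auxin, so that the replicates went different distances. Its partner mtl-2 had 79.6 and 109 at 120 min, against 37.1 and 47.0 without auxin in TOP-1-degron worms (1.14 ± 0.71, adjusted p = 0.561; 0.0536 with the block). mtl-2 changed by 2.38 ± 0.71 in CA1200 (adjusted p = 0.59, limma; 0.0145 with the block).

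**Figure D2:**
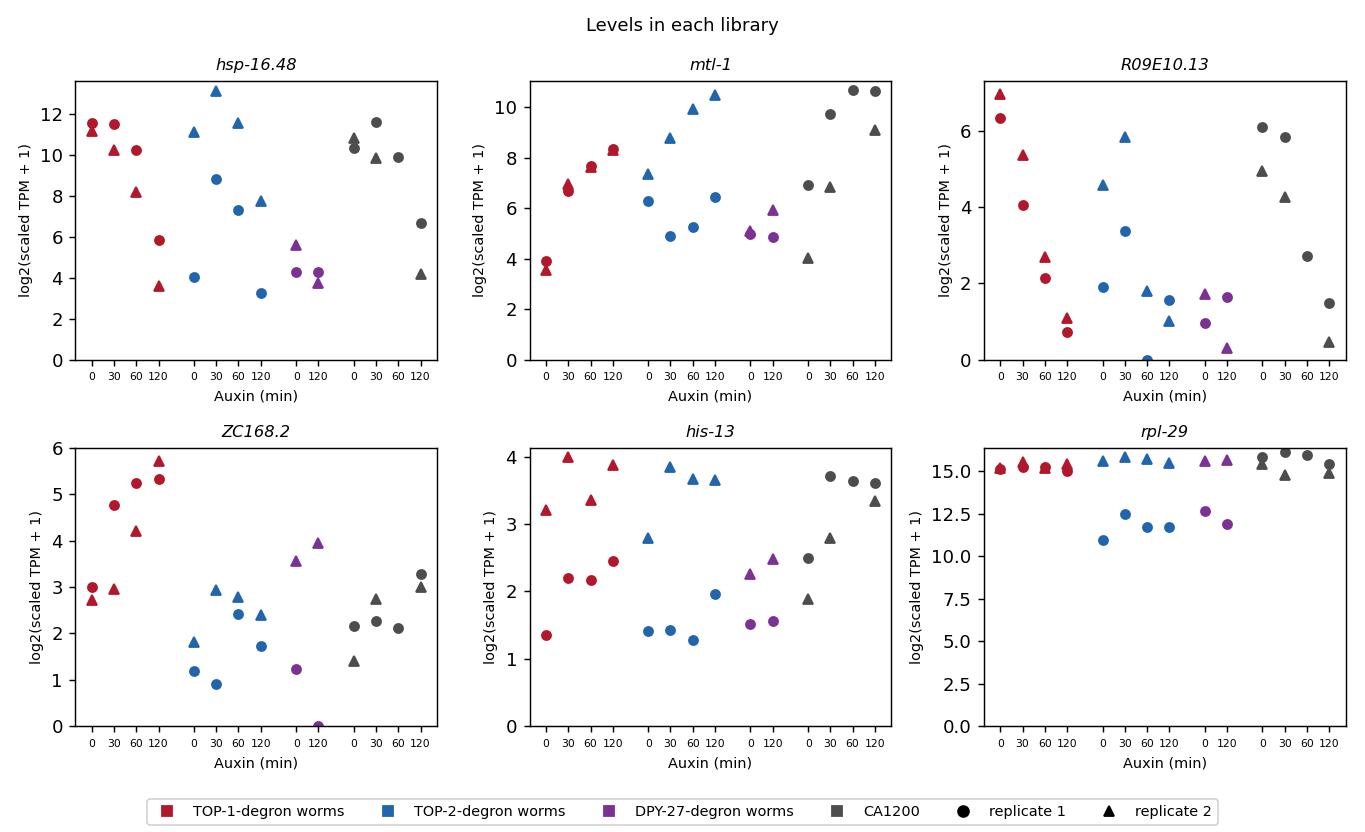
Levels of 6 short genes in each library, as log2(scaled TPM + 1), by strain and auxin time in min; circles are replicate 1 and triangles replicate 2. hsp-16.48 and R09E10.13 are low at 120 min in both TOP-1-degron worms and CA1200, mtl-1 is high there, ZC168.2 stands highest in TOP-1-degron worms, and rpl-29 is low in replicate 1 of TOP-2-degron and DPY-27-degron worms.

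The authors' deposited table for TOP-1-degron worms at 120 min called 8 of the 583 short genes higher and 3 lower among the 313 with an adjusted p, while 3.64% of all genes with one were called, 1.49% higher and 2.16% lower. The 8 higher were mtl-1, ins-11, C23G10.11, ZC168.2, Y50E8A.1, txt-9, spp-15 and C31H5.4, and the 3 lower were R09E10.13, hsp-16.49 and spp-23. These genes were named after their values were seen. R09E10.13 was the gene called both there and in the limma test without the block.

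ZC168.2 had 39.2 and 51.6 scaled TPM at 120 min, against 7.01 and 5.56 without auxin in TOP-1-degron worms, and 8.68 and 6.97 against 3.46 and 1.64 in CA1200. The changes were 2.66 ± 0.65 (limma adjusted p = 0.0514; 0.00366 with the block) and 1.36 ± 0.65 (adjusted p = 1), and their difference was 1.31 ± 0.93 (adjusted p = 1). ins-11, an insulin-like peptide, had 13.5 and 16.9 scaled TPM at 120 min, against 0.75 and 0.992 without auxin (3.11 ± 0.97, adjusted p = 0.128; 0.026 with the block). In CA1200 ins-11 had 2.06 and 4.3 at 120 min, against 0.504 and 1.05 without auxin. Groups did not overlap within a strain for either gene.

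Y50E8A.1 had 92.1 and 71.1 scaled TPM at 120 min, against 16.1 and 14.7 without auxin in TOP-1-degron worms, with no overlap (2.32 ± 0.92, limma adjusted p = 0.251; 0.00335 with the block). In CA1200, Y50E8A.1 had 33.1 and 29.2 at 120 min, against 29.4 and 14.4 without auxin. C23G10.11 rested on unequal replicates, with 115 and 5.94 scaled TPM at 120 min, against 2.34 and 0.309 without auxin in TOP-1-degron worms. In CA1200 both values at 120 min, the higher of them 128, were above the 19.8 and 2.96 without auxin, and the difference in change was -0.02 ± 2.52 (adjusted p = 1).

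Among the more abundant short genes, with a mean from 100 to 1000 TPM, the replicate block added 17 of 68, 14 higher and 3 lower. Over all genes the block called 23%, 11.5% in each direction. Besides hsp-16.48 and mtl-1 the 17 include E04F6.9, F21C10.11, T26H5.9 and ZK632.9, named after their values were seen. F21C10.11 had 478 and 321 scaled TPM at 120 min, against 127 and 31.1 without auxin in TOP-1-degron worms (2.61 ± 1.66, limma adjusted p = 0.574; 0.00109 with the block). E04F6.9 had 183 and 263, against 27.3 and 101 (2.03 ± 1.05, adjusted p = 0.435; 0.000778 with the block). Groups did not overlap in either gene, and the replicates kept their order. CA1200 had 459 and 645 scaled TPM of F21C10.11 at 120 min, against 458 and 257 without auxin, and 214 and 181 of E04F6.9, against 243 and 115.

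The core histones, which package DNA, were the largest named family, with 53 of 57 short histone genes passing the filter. Histone mRNAs of the replication-dependent type usually lack a poly(A) tail, so a poly(A) library holds the part that was captured, and several histone genes have near-identical copies. At 120 min, 47 of 53 had a positive change in TOP-1-degron worms (median 0.36, log2) and 51 of 53 in CA1200 (median 0.80). None was called without the replicate block. With it 6 of 53 rose in TOP-1-degron worms, where 11.5% of all genes did, and 7 of 53 rose in CA1200, where 1.29% of all genes did; several of the 6 have identical values, being near-identical copies. In the change of TOP-1-degron worms beyond CA1200, 49 of 53 were negative, with a median of -0.41 and no call in either fit.

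his-13 had 4.46 and 13.7 scaled TPM at 120 min, against 1.55 and 8.26 without auxin in TOP-1-degron worms (0.88 ± 0.98, limma adjusted p = 0.834; 0.0288 with the block). In CA1200 his-13 had 11.1 and 9.18, against 4.64 and 2.69 (1.29 ± 0.98, adjusted p = 1; 0.0276 with the block). The groups overlapped in TOP-1-degron worms and did not in CA1200. The histone median in TOP-2-degron worms was 0.08 and became -0.07 without the 6 libraries that stood apart, and -0.02 with the span trend removed.

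Neuropeptides and insulin-like peptides, signalling molecules of neurons and gut, numbered 16 and had a median change of 0.58 at 120 min in TOP-1-degron worms, with 13 positive and 3 negative. The median was 0.28 in TOP-2-degron worms, -0.02 in DPY-27-degron worms and 0.00 in CA1200. With the replicate block 3 of the 16 rose in TOP-1-degron worms, where 11.5% of all genes did. The antimicrobial peptides, secreted defence peptides of skin and gut, numbered 32, with 1 of the 22 most abundant among them, and had 12 positive and 17 negative changes in TOP-1-degron worms (median -0.14). In TOP-2-degron worms 24 were positive and 5 negative (median 0.41), and in CA1200 the median was -0.27. With the block cnc-10, a caenacin, rose in TOP-1-degron worms and fipr-1 fell, among 11.5% of all genes in each direction. fipr-1 had 4.80 and 2.35 scaled TPM at 120 min, against 32.6 and 4.56 without auxin (-1.63 ± 0.41, limma adjusted p = 0.0143 with the block), and the groups overlapped. cnc-10 had 1353 and 446 scaled TPM at 120 min, against 673 and 197 without auxin (1.09 ± 1.42, limma adjusted p = 0.872; 0.00576 with the block), and the replicates differed more than the times.

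All 12 cytosolic ribosomal protein genes, 11 of them above 1000 TPM, had small changes with none called. Their median was 0.16 in TOP-1-degron worms, 0.29 in TOP-2-degron worms, -0.42 in DPY-27-degron worms and -0.28 in CA1200 at 120 min, with all 12 on the same side in each. The sign depended on scaling or library in places: the median of the cytosolic ribosomal proteins was -0.05 in TOP-1-degron worms with the span trend removed, and -0.17 in TOP-2-degron worms without the 6 libraries that stood apart. rpl-29, the most abundant of the short genes, had 33303 and 44174 scaled TPM at 120 min, against 35685 and 37533 without auxin in TOP-1-degron worms, and the groups overlapped. In replicate 1 of TOP-2-degron worms without auxin it had 1972 scaled TPM and in replicate 2 it had 50469.7.

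The small factors of translation and secretion had 3 members, all with negative changes in TOP-1-degron worms, DPY-27-degron worms and CA1200. sec-61.B, a subunit of the channel that takes proteins into the endoplasmic reticulum, had 284 and 489.8 scaled TPM at 120 min, against 618 and 1126 without auxin in TOP-1-degron worms (-1.16 ± 0.86, limma adjusted p = 0.666; 0.0262 with the block). In CA1200 sec-61.B had 429 and 376, against 981 and 876 (-1.20 ± 0.86, adjusted p = 1; 0.076 with the block). The groups did not overlap in either strain. The 362 genes with a sequence name and no other name, 6 of the 22 most abundant included, held all 9 calls of TOP-1-degron worms at 120 min, and 234 of them were positive and 115 negative (median 0.24, or -0.01 with the span trend removed).

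**Figure D3:**
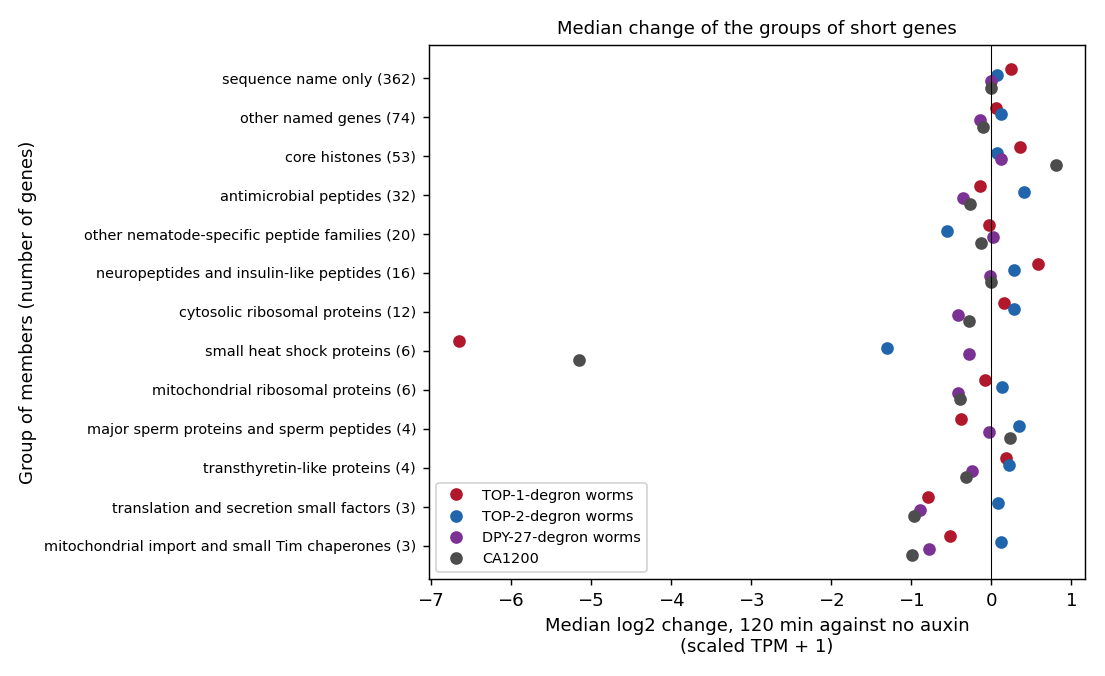
Median log2 change at 120 min of auxin against no auxin (scaled TPM + 1) over the members of each group of short genes with 3 or more members, by strain; numbers in parentheses are genes. Small heat shock proteins are lowest in TOP-1-degron worms (-6.65) and CA1200 (-5.14), and core histones stand highest in CA1200 (0.80).

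At earlier times in TOP-1-degron worms, no short gene was called at 30 min (20, or 3.43%, at an unadjusted p under 0.05, against 6.43% of all genes, and 0.00701% of all genes called) and 1 was called at 60 min, higher (0.519% of all genes, 0.133% higher). With the replicate block the counts were 5 higher and 4 lower at 30 min, against 4.89% of all genes (1.74% higher and 3.15% lower), and 34 higher and 10 lower at 60 min, against 14.6% (6.61% higher and 8.03% lower). F37D6.4 was the gene called at 60 min, with 3.54 and 2.23 scaled TPM, against values listed at 0 without auxin and again at 120 min (limma adjusted p = 0.0494). In CA1200 F37D6.4 had 0 in both libraries without auxin, 2.94 and 1.82 at 30 min, 0 at 60 min, and 2.47 and 1.03 at 120 min. C54G10.1, named after its values were seen, was higher at 30 min with the block (1.84, log2; limma adjusted p = 0.00465). It had 1.41 and 3.26 scaled TPM without auxin, 6.92 and 15.5 at 30 min, 4.63 and 10.9 at 60 min, and 1.87 and 4.06 at 120 min, a transient pattern in both replicates. CA1200 had 3.78 and 0.494 scaled TPM of C54G10.1 without auxin, 8.66 and 2.14 at 30 min, 7.49 at 60 min, and 4.84 and 2.83 at 120 min.

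No short gene was called in TOP-2-degron worms at 30, 60 or 120 min by limma, and 0% of all genes were called at each time. At an unadjusted p under 0.05 there were 16, 15 and 12, or 2.74%, 2.57% and 2.06%, against 1.44%, 1.31% and 1.65% of all genes. The replicate block called 0 short genes as well, against 0.021%, 0.00701% and 0% of all genes at 30, 60 and 120 min. The authors' deposited tables for TOP-2-degron worms at these times called 0 short genes, against 0.00611%, 0% and 0% of all genes. In CA1200, limma called 0 at each time, and 0%, 0% and 0.00701% of all genes were called. At an unadjusted p under 0.05 there were 20 at each time, or 3.43%, against 2.96%, 3.88% and 4.72% of all genes. With the block, 13 short genes rose and 5 fell in CA1200 at 120 min, against 2.24% of all genes (1.29% higher and 0.946% lower), along with 2 of the 22 most abundant, hsp-16.1 and hsp-16.11, which fell. The 5 that fell were hsp-16.48, hsp-16.49, R09E10.13, K02E11.4 and nspe-5, named after their values were seen. DPY-27-degron worms had 0 calls at 120 min in both fits, with 8 at an unadjusted p under 0.05 (1.37%, against 1.52% of all genes). Of all genes 0.0491% were called, or 0.126% with the block. The mixed-stage term already separates the replicates of DPY-27-degron worms in both fits, and the block adds no term for them. Their counts without the block are therefore not like those of the other strains.

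The tests of a difference between strains in the 120 min change called no short gene and 0% of all genes by limma. At an unadjusted p under 0.05 there were 21 for TOP-1-degron worms beyond CA1200 (3.6%, against 3.24% of all genes), 14 for TOP-2-degron worms (2.4%, against 0.757%) and 11 for DPY-27-degron worms (1.89%, against 0.925%) beyond CA1200. There were 26 for TOP-1-degron worms beyond TOP-2-degron worms (4.46%, against 3.17%). With the replicate block, 2 short genes were higher in TOP-1-degron worms than in CA1200, against 1.75% of all genes (0.554% higher). The block also gave 3 higher and 1 lower for TOP-1-degron worms beyond TOP-2-degron worms, against 1.66% of all genes (0.54% higher and 1.12% lower).

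As a group, the short genes lay slightly above 0 in TOP-1-degron worms. Their median change was 0.13 (log2) at 30 min, 0.09 at 60 min and 0.21 at 120 min, while the median of all genes tested was 0.01, 0.01 and 0.04 at these times. At 120 min 363 were positive, 203 negative and 17 at 0. The pairs gave a median of 0.09 in replicate 1 and 0.24 in replicate 2. The median of the change beyond CA1200 was 0.22, against 0.04 over all genes. With the span trend removed, the 120 min median was -0.03. That step subtracts the change typical of genes of like span, so it takes out the shared change of a group defined by span. Without replicate 2 at 120 min the median was 0.

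The medians of the other strains ran from below 0 to above those of TOP-1-degron worms. In TOP-2-degron worms they were 0.26, 0.10 and 0.11 at 30, 60 and 120 min, and at 120 min 0.17 in replicate 1 and 0 in replicate 2. In DPY-27-degron worms at 120 min the median was -0.02, with -0.12 in replicate 1 and 0 in replicate 2. CA1200 had 0.08, 0.17 and 0. Its value at 60 min sets the lone library, of replicate 1, against the mean of both no-auxin libraries. Against the no-auxin library of replicate 1 the 60 min median was 0.04, and with the replicate block it was 0.07. At 30 min the CA1200 pairs gave 0.14 in replicate 1 and 0 in replicate 2, and at 120 min 0 in both. Pair medians of 0 fall on genes with no change between the libraries. In replicate 2 of TOP-2-degron worms at 120 min 242 genes were positive, 279 negative and 62 at 0. The 22 most abundant genes had medians of 0.14 in TOP-1-degron worms, 0.18 in TOP-2-degron worms, -0.40 in DPY-27-degron worms and -0.27 in CA1200 at 120 min.

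**Figure D4:**
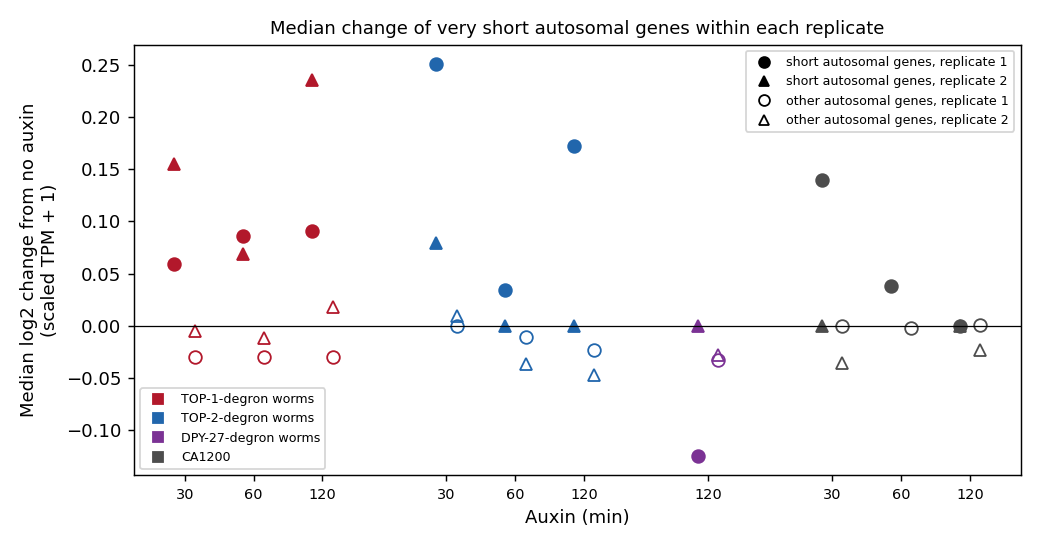
Median log2 change against no auxin (scaled TPM + 1) within each replicate, by strain and auxin time in min, for the 583 short autosomal genes (filled) and the other autosomal genes tested (open). Both replicates of TOP-1-degron and of TOP-2-degron worms are above the open symbols at 30, 60 and 120 min, and so is CA1200 at 30 and 60 min. At 120 min CA1200 lies at 0 in both replicates, above the open symbol in replicate 2 only. In DPY-27-degron worms replicate 1 lies at -0.12, below its open symbol, and replicate 2 at 0, above it. Medians of 0 fall on genes with no change between the libraries.

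Within the range under 600 bp there was no steady trend with span in TOP-1-degron worms at 120 min. The median change was 1.52 in the 19 genes from 100 to under 200 bp, 0.25 in 57 genes below 300 bp, 0.23 in 158 below 400 bp, 0.28 in 162 below 500 bp and 0.05 in 187 below 600 bp, each class starting where the one before it ends. The first class is small and its value changes with the summary, since the replicates gave 0.52 and 0.63 by themselves. Autosomal genes of 600 to 799 bp had 0.20, those of 800 to 1199 bp 0.16 and those of 1200 to 1999 bp 0.15. The median was 0.04 from 2000 to 3999 bp, -0.18 from 4000 to 7999 bp and -0.53 at 8000 bp and over. From 600 bp on it thus fell with every class, with both replicates negative at the long end (-0.64 and -0.44). The classes below 500 bp lay above those of 600 to 1999 bp, and the last class under 600 bp, at 0.05, lay below them. In TOP-2-degron worms the median went the same way with span. It was 0.11 at 600 to 799 bp, -0.11 at 4000 to 7999 bp and -0.20 at 8000 bp and over (replicates -0.23 and -0.17). In DPY-27-degron worms the classes lay between -0.10 and 0, and in CA1200 between -0.06 and 0.03.

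By level and exon number the median in TOP-1-degron worms was above 0. It was 0.12 in short genes with a mean under 1 TPM, 0.24 from 1 to 5 TPM, 0.28 from 5 to 50 TPM and 0.09 from 50 to 1000 TPM. Genes with 1 exon had 0.29, those with 2 had 0.21 and those with 3 or more had 0.15, while the change beyond CA1200 ran the other way, with -0.09, 0.29 and 0.33. The 301 genes with a mean count of at least 10 had a median of 0.23 with 3 higher and 1 lower called, and the other 282 had 0.19 with 4 and 1. Beyond CA1200 the medians of these classes were 0.34 and 0.01. The median was between 0.16 and 0.23 on each of the 5 autosomes.

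**Figure D5:**
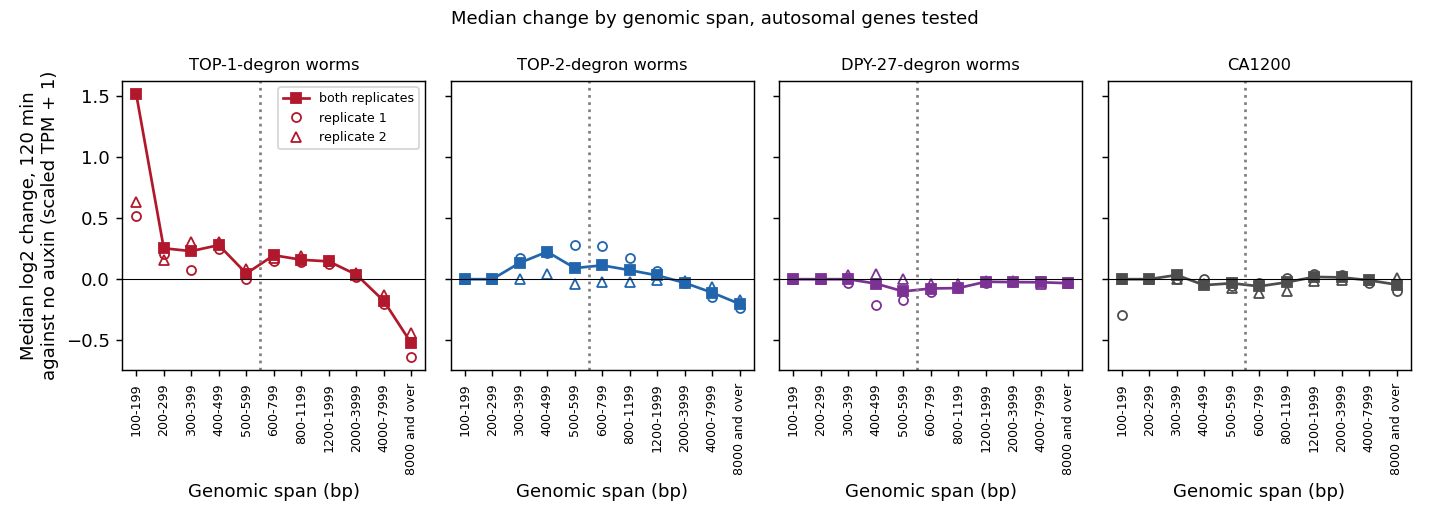
Median log2 change at 120 min against no auxin (scaled TPM + 1) by genomic span in bp for autosomal genes tested, 1 panel per strain; squares are the change fitted over both replicates, open symbols the single replicates, and the dotted line the 600 bp limit. In TOP-1-degron worms the medians run between 0.05 and 0.28 from 200 to 1999 bp and reach -0.53 at 8000 bp and over. In TOP-2-degron worms they reach -0.20 there.

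Without auxin, no short gene was called lower than in CA1200 by limma in any tagged strain. The median difference from CA1200 was -0.07 in TOP-1-degron worms (232 positive and 318 negative), -0.25 in TOP-2-degron worms (198 and 356) and -0.37 in DPY-27-degron worms (214 and 355). Among the 22 most abundant it was -0.21, -1.34 and -1.93. Replicate 1 of TOP-2-degron and DPY-27-degron worms is among the 6 libraries that stood apart, where cytosolic ribosomal proteins took 17.7% to 26.7% of TPM, against 33.3% to 40.7% in the others. Without those libraries the TOP-2-degron median was 0 (268 positive and 268 negative), and 0.45 among the 22 most abundant, and for DPY-27-degron worms no such fit was available. limma called 0 short genes in TOP-1-degron worms and 0 in TOP-2-degron worms, with 0% of all genes called in each. At an unadjusted p under 0.05 these comparisons had 23 short genes (3.95%, against 3.08% of all genes) and 51 (8.75%, against 6.29%). It called 2 in DPY-27-degron worms, both higher, against 0.476% of all genes (0.392% higher), in a comparison that rests on the level of replicate 1.

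The 2 genes higher in DPY-27-degron worms were ins-20, an insulin-like peptide, and T28A11.4. ins-20 had 42.3 and 20.6 scaled TPM in DPY-27-degron worms, against 0.343 and 0.359 in CA1200 without auxin, and stayed at 44.5 and 38.1 in DPY-27-degron worms at 120 min (4.80 ± 0.74 without auxin, limma adjusted p = 0.0133). Its highest value in TOP-1-degron and TOP-2-degron worms was 4.56. T28A11.4 had 6.8 and 1.2 scaled TPM in DPY-27-degron worms without auxin, and was listed at 0 in every CA1200 library (adjusted p = 0.0209, limma). No overlap was present in either gene. With the replicate block the counts without auxin were 28 in TOP-1-degron worms (5.17% of all genes called), 160 in TOP-2-degron worms (24.1%) and 241 in DPY-27-degron worms (45%), but a block takes the spread between replicates out of a comparison between strains, so these p-values are too small.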

How the data were processed

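Per the labels, mRNA was selected with oligo(dT) beads and library DNA of 250 to 500 bp was gel purified. Per the submitters' processing notes, the authors' tools were DESeq2 1.30.0, Cufflinks 2.2.1, HTSeq 0.13.5, HISAT2 2.2.1 and CASAVA 1.8, with no role given here. Per the file headers, each library's deposited table gives FPKM and TPM for every gene, and each deposited comparison holds the mean signal of a gene (baseMean, here called a mean count), a log2 fold change and an adjusted p-value. Which reads were kept, and the genome build, are not given in the sources used here. Starts in the files were raised by 1 to count from 1. Spans were taken before this step, so each is 1 bp longer than the printed coordinates give. Names and exons came from the WBcel235 annotation by sequence name.

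TPM was scaled by median ratios over 12647 genes. limma 3.58.1 (R 4.3.3) fitted log2(scaled TPM + 1) for 14271 genes with at least 1 TPM in at least 2 libraries. All 27 libraries entered 1 fit, with a mean per strain and time, a term for mixed stage and 12 residual degrees of freedom. The mixed-stage libraries are replicate 2 of DPY-27-degron worms, so this term already separates their replicates. The replicate block described below was added for the other strains only. P-values are two-sided and adjusted by Benjamini-Hochberg over all genes tested. Fold changes on this scale understate ratios at low TPM. The lone CA1200 library at 60 min is assumed to vary like the others. A check of the fit on simulated data drew each library independently and planted changes only in genes above low levels. It therefore does not cover paired replicates or genes with few fragments. Deviations of same-numbered libraries within a strain correlated by 0.377 to 0.903 across genes, so results with the replicate as a block (9 residual degrees of freedom) stand beside the others where they differ. Depth came from FPKM steps, where 89.7% to 95% of values were within 0.1 of a whole number of fragments.

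Genes were named by a rule: those called with the largest changes, or, where none passed, the smallest p; the hsp-16 and mtl genes, R09E10.13 and F35F10.14; and the most abundant of each list. The genes, lists and alternatives were chosen with earlier results of these data known. Alternatives were TPM as deposited, a pseudocount of 5, no filter, the block, removal of the trend with span, and leaving out libraries. Removal of the trend with span takes out, by construction, change shared by genes of like span. Medians of the short genes and of lists among them after this step are therefore no test of that change. Promoter motifs were not analysed here.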

Additional observations from a re-analysis of the deposited data

Results flagged for a closer look

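Differences between strains in the 120 min change were picked out for 6 short genes by the limma interaction test with the replicate block. None passed without the block, and all 6 were named after their values were seen. F09C6.11 changed by 3.9 (log2) more in TOP-1-degron worms than in CA1200 (limma adjusted p = 0.0261 with the block, 1 without). It had 3.46 and 19.2 scaled TPM at 120 min in TOP-1-degron worms, against 0 and 0 without auxin. In CA1200 it had 0 and 0 at 120 min, against 0 and 1.46. F30A10.14 changed by 1.46 more in TOP-1-degron worms than in CA1200 (limma adjusted p = 0.0481 with the block, 1 without). It had 7.28 and 2.58 scaled TPM at 120 min in TOP-1-degron worms, against 1.24 and 0.657, and 1.54 and 2.43 in CA1200, against 2.01 and 1.75.

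Beyond TOP-2-degron worms, the change in TOP-1-degron worms was larger by 4.15 for F35F10.14 (limma adjusted p = 0.0128 with the block), whose change beyond CA1200 was 0.69 ± 0.98. It was larger by 3.68 for C08E3.15 and by 3.71 for a gene of clone Y105C5A on chromosome IV. C08E3.15 had 7.72 and 1.83 scaled TPM at 120 min in TOP-1-degron worms, against 0 and 0, and in TOP-2-degron worms 0 and 0, against 0 and 5.69. The Y105C5A gene was above 0 in the same libraries as C08E3.15, so they are not read as separate results. Both differences rest in part on the higher of the no-auxin libraries of TOP-2-degron worms (5.69 for C08E3.15). For nspb-2 the difference was -1.91, with 0 and 0 scaled TPM at 120 min in TOP-1-degron worms, against 0.675 and 0.137. In TOP-2-degron worms nspb-2 had 2.27 and 1.27, against 0 and 0. The values of C08E3.15, the Y105C5A gene and nspb-2 lie at or near the floor of detection in most libraries. With the block this test called 0.54% of all genes higher and 1.12% lower.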

How the results depend on the processing

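Counts of short genes called rested on the fit, and their range over the alternatives is given by time. The shares of all genes called stand above for the limma fit and for the replicate block. For the other alternatives no such share is given, here or below. Their counts and directions therefore show how the calls depend on the fit and are not results about short genes. In TOP-1-degron worms at 30 min (0 called) the count was 1 with a pseudocount of 5 and 9 with the replicate block. At 60 min (1 called) it was 0 with TPM as deposited, with no filter on low values, with the span trend removed and in genes with a mean count of 10 or more, an alternative chosen after seeing the data. It was 44 with the replicate block, 8 without the 6 libraries that stood apart, and 0 to 1 when single libraries were left out. At 120 min (9 called) it was 1 with TPM as deposited, 2 with the span trend removed, 4 in genes with a mean count of 10 or more, 97 with the replicate block, 26 without the 6 libraries (21 higher and 5 lower), and 0 to 4 when single libraries were left out.

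Elsewhere the replicate block gave 18 in CA1200 at 120 min, 2 in TOP-1-degron worms beyond CA1200 and 4 beyond TOP-2-degron worms, and 28, 160 and 241 in TOP-1-, TOP-2- and DPY-27-degron worms against CA1200 without auxin. DPY-27-degron worms without auxin (2 called) had 4 with TPM as deposited, 11 with a pseudocount of 5, 4 with no filter, 5 with the span trend removed and 0 to 2 with single libraries left out. Without the 6 libraries, counts that were 0 became 2 in TOP-2-degron worms at 30 min and 1 at 60 min and at 120 min, 2 in CA1200 at 60 min and 1 at 120 min, and 1 in DPY-27-degron worms at 120 min. They also became 1 in TOP-2-degron and in DPY-27-degron worms beyond CA1200, 2 in TOP-1-degron beyond TOP-2-degron worms, and 1 in TOP-2-degron worms against CA1200 without auxin. Leaving out those 6 puts 1 library in every TOP-2-degron and DPY-27-degron group, and the lone library is assumed to vary like the other groups. Leaving out single libraries gave 0 to 0 in all of these. The causes were not tested.

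The median change at 120 min in TOP-1-degron worms was -0.0275 with the span trend removed and 0 to 0.2879 with single libraries left out. In CA1200 it was 0.008 with TPM as deposited, -0.0424 with the span trend removed and -0.0479 to 0.0001 with single libraries left out. Beyond CA1200 it was 0.1056 with TPM as deposited, 0.1132 with a pseudocount of 5, 0.013 with the span trend removed and 0.1217 to 0.3867 with single libraries left out. Leaving out single libraries gave -0.15 to 0.4308 in TOP-2-degron worms and -0.1247 to 0 in DPY-27-degron worms. The values with the span trend removed lack, by construction, change shared by genes of like span, and the group is defined by span. No named gene changed direction among the calls tested. Depth limits the shortest genes most, where a level of a few TPM rests on 1 or a few fragments.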
